A study of Homo sapiens with 12 samples.

Results

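The miR-130/miR-301 and miR-148/miR-152 families were followed across extracellular vesicles (EV) released by human induced pluripotent stem cells (hiPSC) and by their derivatives on the way to cardiomyocytes. The members were chosen by name, as mature miRNA of 2 families with related seeds, when counts from the same libraries were already known. They are 8 of the 1133 miRNA rows of the count table, namely hsa-miR-130a-3p, hsa-miR-130b-3p, hsa-miR-130b-5p, hsa-miR-301a-3p, hsa-miR-301b-3p, hsa-miR-148a-3p, hsa-miR-148b-3p and hsa-miR-152-3p, named without hsa below. Their levels and fold changes are therefore given as a description, without a test. Arms and relatives outside this list, and the transcripts described further on, were read with their tests.

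A mature miRNA guides Argonaute to messenger RNA mainly by pairing of its seed, the bases 2 to 8 from its 5′ end, so that miRNA with 1 seed share most of their predicted targets. A hairpin precursor holds a 5p and a 3p arm, of which often only 1 is retained, and both families are usually defined by their 3p arms. The miR-130/miR-301 family is known for repressing mediators of TGF-β signalling. The miR-148/miR-152 family is known for repressing DNA methyltransferases.

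The libraries came from 4 EV groups of 3, each from independent cultures of 1 established hiPSC line, iPS(IMR90)-4. hiPSC-EV were collected at day 0 from expansion medium after 24 h of conditioning, and EV of cardiac progenitors (CPC-EV) at day 6 from differentiation medium after 72 h. EV of immature cardiomyocytes (CMi-EV) came from maintenance medium at day 15, and EV of metabolically matured cardiomyocytes (CMm-EV) from maturation medium at day 35, both after 48 h. Stage and medium changed together at each step and cannot be told apart, nor can conditioning time up to CMi-EV and the change to aggregates between CPC-EV and CMi-EV. The number of vesicles and the RNA in each vesicle cannot be told apart either. The counts on miRNA ranged from 703415 in hiPSC-EV 1 to 6272455 in CMm-EV 2. Levels are CPM, counts scaled to the miRNA total of a library, with TMM factors over the 12 libraries, as mean ± SD.

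The seeds tie the families together and set miR-130b-5p apart, which is why these sequences are shown. They are the mature sequences of RefSeq on GRCh38.p14, 5′ to 3′, with the seed in capitals. The first 3 share the seed of the miR-130/miR-301 family with miR-454-3p, which was not on the list of members.
miR-130b-3p: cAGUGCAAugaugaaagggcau
miR-301a-3p: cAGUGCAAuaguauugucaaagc
miR-301b-3p: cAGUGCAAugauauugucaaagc
miR-454-3p: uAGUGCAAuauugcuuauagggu
The miR-148/miR-152 family has a seed of its own.
miR-148a-3p: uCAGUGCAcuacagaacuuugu
miR-148b-3p: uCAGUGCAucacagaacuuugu
miR-152-3p: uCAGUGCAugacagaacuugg
The 5p arm of the miR-130b hairpin carries another, unrelated seed.
miR-130b-5p: aCUCUUUCccuguugcacuac

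Both family seeds hold the run of 6 bases AGUGCA, shifted by 1 position. Counted from 1 at the 5′ end, miR-148a-3p and miR-148b-3p were identical at 20 of 22 positions and differed by C9U and U10C. miR-148b-3p and miR-152-3p were identical at 19 of 21 positions and differed by C10G and U20G. miR-301a-3p and miR-301b-3p were identical at 21 of 23 positions (A10G and G11A). Despite this likeness, none of the 71 values above 0 of the 8 members was fractional (tolerance 1e-06), against 9.11% of the 5336 values above 0 of all miRNA. Of the 1133 rows, 965 had a mature sequence in the RefSeq table, among them 7 of the 8 members. Besides the named miRNA, no other matched row had either family seed.

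Each precursor overlaps a gene on the same strand (GENCODE v44), and some of them share one. MIR148A lies on chromosome 7 from 25949919 to 25949986, in an intron of a long noncoding RNA. MIR148B is found in an intron of COPZ1, which encodes a subunit of the COPI vesicle coat, on chromosome 12 from 54337216 to 54337314. MIR152 lies in an intron of the related gene COPZ2 on chromosome 17 from 48037161 to 48037247. MIR301B (chromosome 22, 21652981 to 21653058) and MIR130B (21653304 to 21653385) start 323 bases apart within 1 long noncoding RNA, the former in an intron and the latter partly in an exon. MIR301A (chromosome 17, 59151136 to 59151221) and MIR454 (59137758 to 59137872) both lie in introns of SKA2, a gene of kinetochore attachment. MIR130A lies on chromosome 11 from 57641198 to 57641286, in an intron of its host transcript MIR130AHG.

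Marker miRNA were summed as a look at the cells behind each group. The 5 hiPSC markers summed to 186628 ± 20601, 65734 ± 15478, 5380 ± 1349 and 182 ± 105 CPM from hiPSC-EV to CMm-EV (n = 3 each), with miR-302b-3p the most abundant in each group and miR-367-3p at 0 in CMm-EV. The 5 cardiomyocyte markers had 59.0 ± 13 CPM in hiPSC-EV, 1044 ± 414 in CPC-EV and 49618 ± 27525 in CMi-EV. In CMm-EV they had 37725, 51354 and 208254 CPM, so that the mean of 99111 ± 94766 rested on CMm-EV 3 and the other libraries lay within the range of CMi-EV. miR-1-3p led them in each group, miR-208b-3p was at 0 in hiPSC-EV and CPC-EV, and miR-499a-5p was at 0 in CPC-EV. Lists for other cells were added. The 4 smooth muscle and fibroblast markers came to 377 ± 161, 3003 ± 1278, 43230 ± 15775 and 167845 ± 36340 CPM, most of it miR-143-3p, and miR-214-3p was at 0 in hiPSC-EV and CPC-EV. The 4 endoderm markers, led by miR-192-5p except in CPC-EV, where miR-375-3p led, summed to 1792 ± 475, 7374 ± 1332, 4817 ± 2085 and 3166 ± 1154 CPM. Of the 5 blood and serum markers, miR-223-3p had no row, and the others summed to 7046 ± 1691, 983 ± 152.03, 1621 ± 773 and 826 ± 52.3 CPM, with miR-486-5p nearly alone. miR-144-3p was at 0 outside CPC-EV and miR-150-5p outside hiPSC-EV, and miR-451a was at 0 in CMi-EV. The endothelial miR-126-3p had 47.5 ± 14.6, 38.3 ± 6.2, 43.8 ± 12.8 and 11.4 ± 9.87 CPM. miR-143 and miR-486 are also known as miRNA of heart and skeletal muscle, so these sums do not tell other cells apart. The part of such cells in the levels below was not tested.

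The miR-148/miR-152 family was abundant in each group, and most of it was miR-148a-3p. miR-148a-3p had 12585, 16211 and 21718 CPM in hiPSC-EV 1 to 3, 10417, 12156 and 9508 in CPC-EV, 12974, 12013 and 11239 in CMi-EV, and 4914, 4919 and 5829 in CMm-EV. The 3 CMm-EV libraries lay below the 9 others. By its mean it ranked at place 11 of all miRNA in hiPSC-EV, then at 12 and 15, and at 26 in CMm-EV. The means, from high to low, were 16838 ± 4599 (hiPSC-EV), 12075 ± 869 (CMi-EV), 10694 ± 1345 (CPC-EV) and 5221 ± 527 CPM (CMm-EV). CMi-EV and CPC-EV did not differ beyond their spread.

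miR-148b-3p, with the same seed, had 525, 828 and 1489 CPM in hiPSC-EV, 820, 938 and 768 in CPC-EV, 886, 1328 and 1096 in CMi-EV, and 425, 386 and 669 in CMm-EV. CMm-EV were lowest again, but hiPSC-EV 1 lay among them. Its means of 1103 ± 221 in CMi-EV, 947 ± 493 in hiPSC-EV and 842 ± 87.1 in CPC-EV did not differ beyond their spread, and CMm-EV had 493 ± 153 CPM.

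miR-152-3p took the opposite course. It had 67.3, 59.2 and 28.4 CPM in hiPSC-EV, 0.384, 29 and 47.2 in CPC-EV, 142, 202 and 230 in CMi-EV, and 636, 389 and 564 in CMm-EV. Each CMi-EV library lay above all 6 earlier ones, and each CMm-EV library above all of CMi-EV, while hiPSC-EV (51.6 ± 20.6) and CPC-EV (25.5 ± 23.6) overlapped. The lowest value, that of CPC-EV 1, rests on a count of 1, against 117 and 127 in the other CPC-EV libraries. The means of the later groups were 191 ± 44.8 and 530 ± 127 CPM, and its rank among all miRNA moved from 212 in hiPSC-EV to 77 in CMm-EV.

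**Figure D1:**
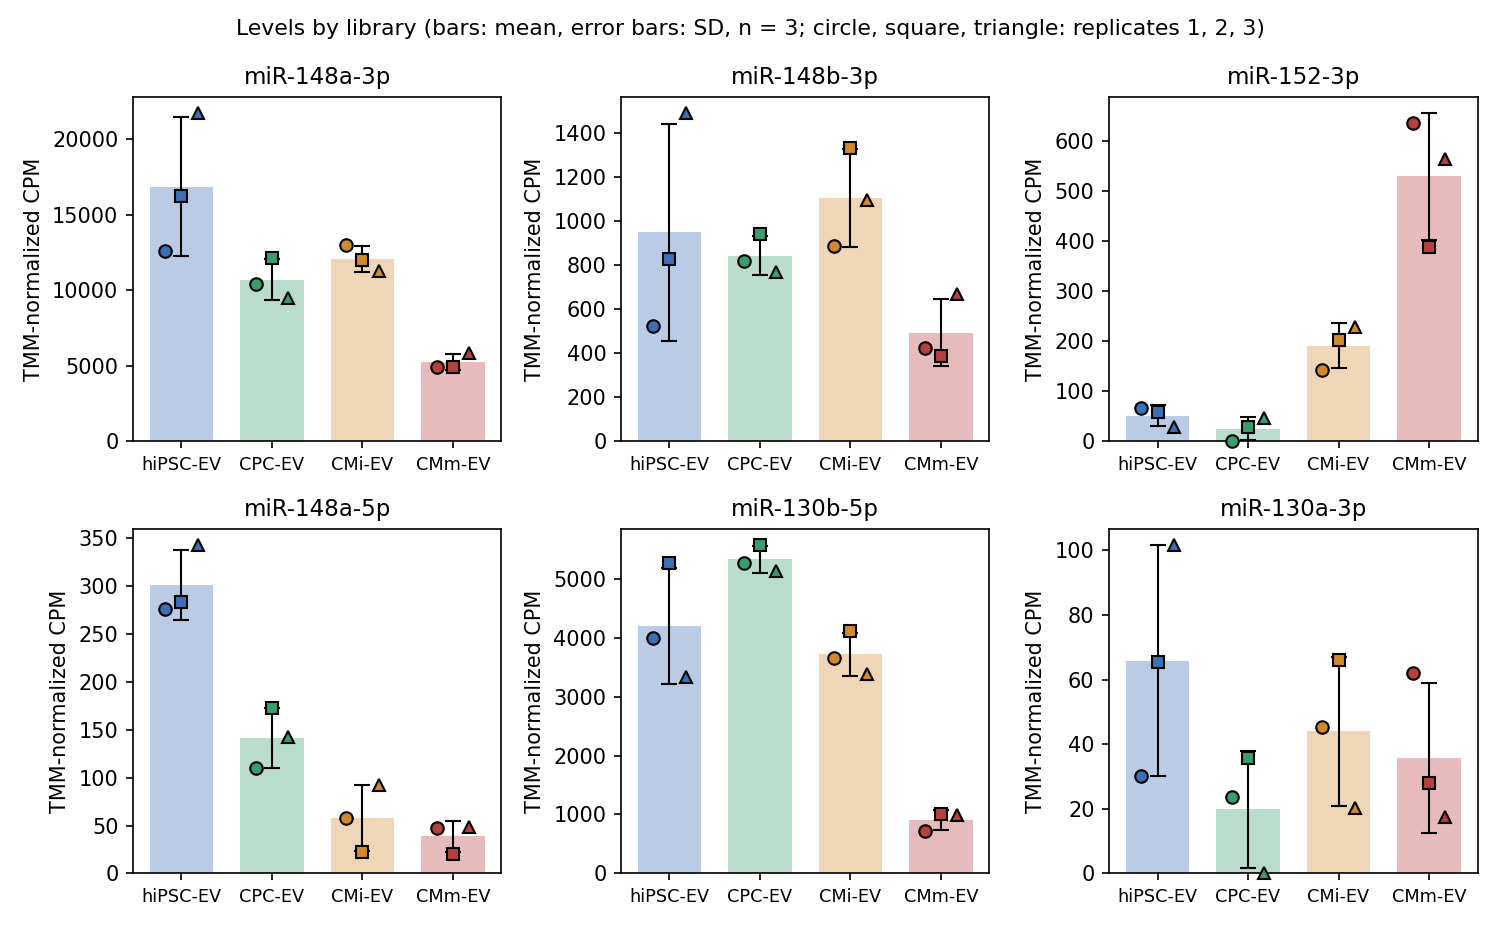
TMM-normalized CPM of 5 members and of miR-148a-5p in each library, with 1 panel per miRNA and linear axes from 0; bars are means, error bars are SD (n = 3) and symbols mark the replicates. miR-148a-3p and miR-130b-5p are lowest in CMm-EV, miR-152-3p is highest there (530 ± 127 CPM), and miR-148a-5p is highest in hiPSC-EV.

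Ratios within a library do not depend on the scaling between libraries. For each 1000 counts of miR-148a-3p, hiPSC-EV held 5.35, 3.65 and 1.31 counts of miR-152-3p, and CPC-EV held 0.0368, 2.39 and 4.97. CMi-EV held 10.9, 16.8 and 20.4, and CMm-EV 129, 79.1 and 96.7, so that the later groups overlapped neither each other nor the earlier ones. The same ratio of miR-148b-3p lay between 41.7 in hiPSC-EV 1 and 115 in CMm-EV 3. Its means were 53.8 ± 13.6, 78.9 ± 1.81, 92.1 ± 21.7 and 93.2 ± 19.1 in the order of the stages. The hiPSC-EV libraries (at most 68.6) lay below all of CPC-EV (from 77.2) and CMm-EV (from 78.4), but overlapped CMi-EV (from 68.3). Of all counts on the 3 family members, miR-152-3p made up 0.326% ± 0.195 in hiPSC-EV and 0.227% ± 0.227 in CPC-EV, but 1.44% ± 0.409 in CMi-EV and 8.49% ± 1.96 in CMm-EV (n = 3 each). The highest single share was 10.6% in CMm-EV 1 (exact 95% binomial interval 9.80 to 11.5), and the lowest was 0.00341% in CPC-EV 1 (8.64e-05 to 0.0190). Such intervals cover counting error only, since amplified reads are not independent molecules. In CPM, the gain of miR-152-3p was small beside the loss of miR-148a-3p. In the order of the stages, the summed level of the seed was 17837 ± 5070, 11561 ± 1428, 13370 ± 734 and 6244 ± 722 CPM. With library size only, the means were 17577, 17043, 14227 and 3983 CPM, so that hiPSC-EV and CPC-EV came close, CPC-EV lay above instead of below CMi-EV, and CMm-EV stayed lowest.

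**Figure D2:**
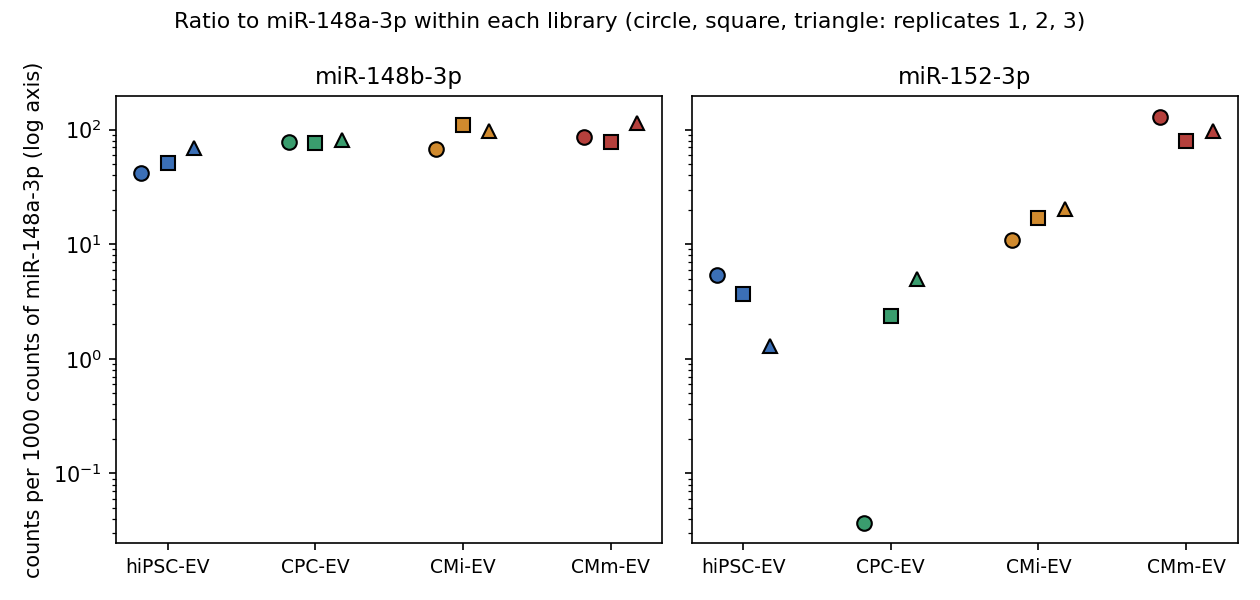
Counts of miR-148b-3p and of miR-152-3p for each 1000 counts of miR-148a-3p in the same library, on a shared log axis, by EV group, with symbols for the replicates. miR-148b-3p lies between 41.7 and 115, while miR-152-3p goes from at most 5.35 in the earlier groups to at least 79.1 in CMm-EV.

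The miR-130/miR-301 family was represented almost only by an arm without the family seed. miR-130b-5p had 4000, 5270 and 3329 CPM in hiPSC-EV, 5273, 5575 and 5141 in CPC-EV, 3653, 4116 and 3380 in CMi-EV, and 712, 1016 and 992 in CMm-EV. The CMm-EV libraries lay below the 9 others, with a mean of 906 ± 169 CPM. CPC-EV had the highest mean (5330 ± 222.9), followed by hiPSC-EV (4200 ± 986) and CMi-EV (3716 ± 372), and these last means did not differ beyond their spread.

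The 4 members with the family seed were scarce. miR-130a-3p had 30.2, 65.6 and 102 CPM in hiPSC-EV, 23.8, 35.7 and 0 in CPC-EV, 45.4, 66.2 and 20.3 in CMi-EV, and 61.9, 27.8 and 17.4 in CMm-EV. These groups overlapped, and for counting error only, the 0 in CPC-EV 3 allows up to 1.12 CPM (3 counts). miR-130b-3p was counted 28 and 117 times in hiPSC-EV 2 and 3 and 26 and 128 times in CPC-EV 1 and 2, and had no count in the 8 other libraries. miR-301a-3p had counts in 5 libraries, none of them CPC-EV, up to 43.1 CPM in CMi-EV 2. miR-301b-3p had counts in 3 libraries, hiPSC-EV 3, CMi-EV 2 and CMm-EV 2, with 48, 45 and 57. Together these 4 summed to 89.6 ± 57.5, 33.7 ± 33.7, 75.9 ± 56.3 and 45.7 ± 24.6 CPM in the same order, differences within the spread between libraries.

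The arms of the family hairpins were used in different ways. Over the 12 libraries, miR-130b had 110097 counts on its 5p arm and 299 on its 3p arm, and the 5p arm led in 12 of 12 libraries. The lowest 5p share was 99.3% in hiPSC-EV 3 (exact 95% interval 99.1 to 99.4). In CMm-EV 1, the shallowest of the libraries without a 3p count among CMi-EV and CMm-EV, the interval still began at 99.4%. miR-454 also had mainly its 5p arm (94.5%, 2846 against 165 counts), as did miR-301a (74.2%, 818 against 285 counts, ahead in 9 libraries). By contrast, the 3p arm held 98.8% of the counts of miR-148a, 98.7% of those of miR-148b and 93.9% of those of miR-130a, and led in each library with a count. For miR-301b, with counts in 4 libraries, the 3p arm held 67.9% (150 against 71 counts) and led in 3, while the 56 counts in CPC-EV 3 were all on the 5p arm, and miR-152-5p had no row in the table. Strong arm bias was common, since 1 arm held over 99% in 35.8% of the 123 hairpins with both arms listed and at least 1000 counts, 23 on the 5p and 21 on the 3p side.

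**Figure D3:**
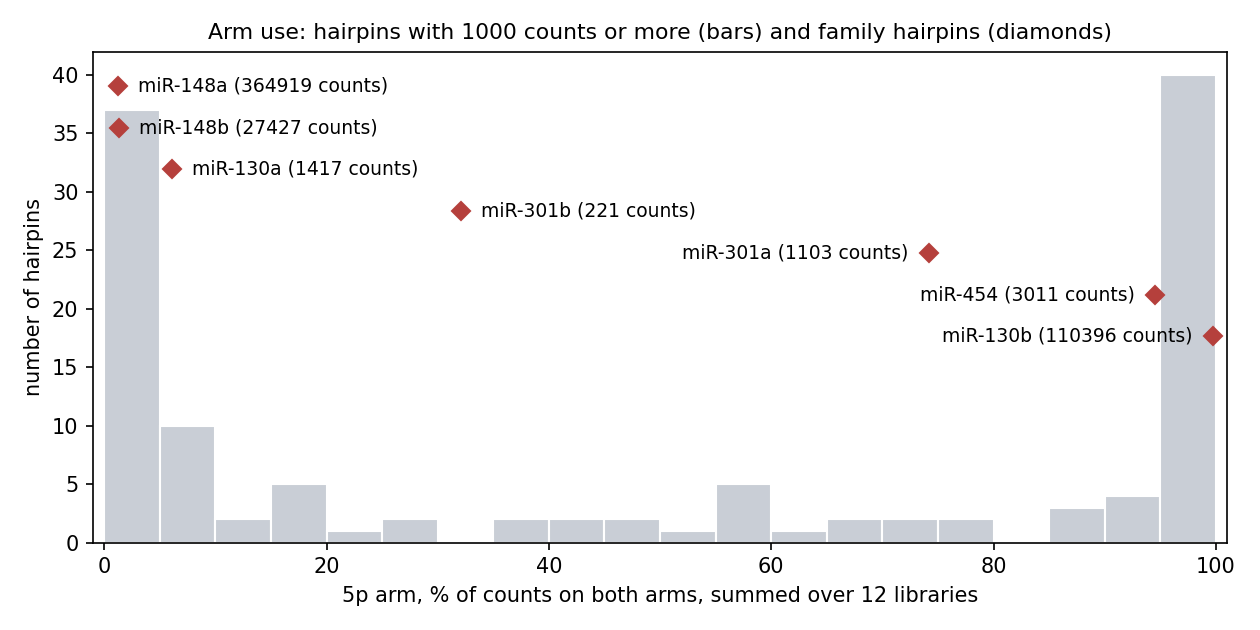
Share of the 5p arm in the counts on both arms, summed over the 12 libraries, as a histogram of the 123 hairpins with at least 1000 counts (bars) with the family hairpins and miR-454 as diamonds, placed at arbitrary heights for legibility. miR-130b lies at 99.7% and miR-148a at 1.22%, at opposite ends of the axis.

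Pairs of groups were then compared with edgeR (quasi-likelihood test, 6 libraries per pair), to obtain log2 fold changes of the members as a description and to test all other miRNA. Outside the members, a miRNA was taken as differentially expressed (DE) at a Benjamini-Hochberg FDR of 0.05 over all tested miRNA together with an absolute log2 fold change from 1 upward. Of the 8 members, 5 reached the required 5 CPM in all 3 libraries of a group in each comparison, and miR-130b-3p, miR-301a-3p and miR-301b-3p did not. These fold changes use TMM factors within each pair, so they can differ from ratios of the CPM above. Comparisons that share a group also share its libraries.

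In CPC-EV against hiPSC-EV, miR-148a-3p had a log2 fold change of -0.23 (SE 0.19), with each hiPSC-EV library above each of CPC-EV in TMM-scaled CPM. Relative to the TMM median of all tested miRNA this was 0.04, and with library size only the log2 fold change was -0.08. miR-148b-3p had 0.27 (SE 0.34), or -0.02 without hiPSC-EV 1. miR-130b-5p had 0.76 (SE 0.20), or 1.03 relative to the median of all tested miRNA, with values of the former between 0.56 and 0.90 in the 13 other analyses of the pair. miR-152-3p (-0.62, SE 1.29) and miR-130a-3p (-1.34, SE 1.42) were too variable in CPC-EV for a direction. Of all 338 tested miRNA, whose median was -0.27, 27.5% met the thresholds, 11.5% higher and 16% lower in CPC-EV.

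From CPC-EV to CMi-EV, miR-152-3p had the largest log2 fold change of the members, 2.91 (SE 1.17), with 3 of 3 CMi-EV libraries above all of CPC-EV. CPC-EV 1 held a single count, and without that library the log2 fold change was 2.33, the lowest of 13 alternatives that reached up to 3.83. miR-130b-5p had -0.53 (SE 0.15), or -1 when libraries were scaled by size only. miR-148a-3p (0.17, SE 0.17) and miR-148b-3p (0.37, SE 0.19) changed sign with that scaling, to -0.30 and -0.08, as the median of all tested miRNA moved from -0.05 to -0.52. Relative to the median they had 0.22 and 0.42 with TMM. miR-130a-3p had 1.16 (SE 1.57). Of all 292 tested miRNA, 28.4% met the thresholds, 14.4% higher and 14% lower in CMi-EV.

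At maturation, the step from CMi-EV to CMm-EV, miR-130b-5p, miR-148a-3p and miR-148b-3p were lower in each CMm-EV library than in any of CMi-EV, and miR-152-3p was higher. miR-130b-5p had a log2 fold change of -2.19 (SE 0.21), miR-148a-3p of -1.37 (SE 0.16) and miR-148b-3p of -1.32 (SE 0.31), against 1.30 (SE 0.35) for miR-152-3p. miR-130a-3p, whose libraries overlapped, had -0.50 (SE 0.83). Scaling moved these values. With median-of-ratios factors and with library size only, miR-130b-5p had -2.09 and -2.81, miR-148a-3p -1.26 and -1.95, and miR-148b-3p -1.22 and -1.94. miR-152-3p had 1.42 and 0.78. The median of all 247 tested miRNA moved too, from -0.30 with TMM to -0.20 and -0.91. Relative to the TMM median, the values were -1.89 for miR-130b-5p, -1.07 for miR-148a-3p, -1.02 for miR-148b-3p and 1.60 for miR-152-3p. miR-130a-3p had -0.20 relative to the median, but 0.01 with library size only. Over the 13 alternatives, miR-152-3p lay between 0.78 and 1.55 and miR-148b-3p between -1.94 and -1.17. Of all tested miRNA, 16.6% met the thresholds, 6.48% higher and 10.1% lower in CMm-EV.

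Between both ends, in CMm-EV against hiPSC-EV, miR-130b-5p (-2.51, SE 0.31) and miR-148a-3p (-2.01, SE 0.31) were lower and miR-152-3p (3.09, SE 0.46) was higher, with no overlap between the groups. miR-148b-3p had -1.29 (SE 0.50) and miR-130a-3p -1.21 (SE 0.81), and for both the groups overlapped. Over the 13 alternatives, miR-148b-3p lay between -1.56 and -0.70. The median of all 336 tested miRNA was itself -1.53, and -1.20 or -1.97 with the other scalings. Relative to the TMM median, miR-148a-3p had -0.48, miR-130b-5p -0.98, miR-148b-3p 0.24 and miR-152-3p 4.62. Of all tested miRNA, 53.6% met the thresholds, 16.1% higher and 37.5% lower in CMm-EV.

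**Figure D4:**
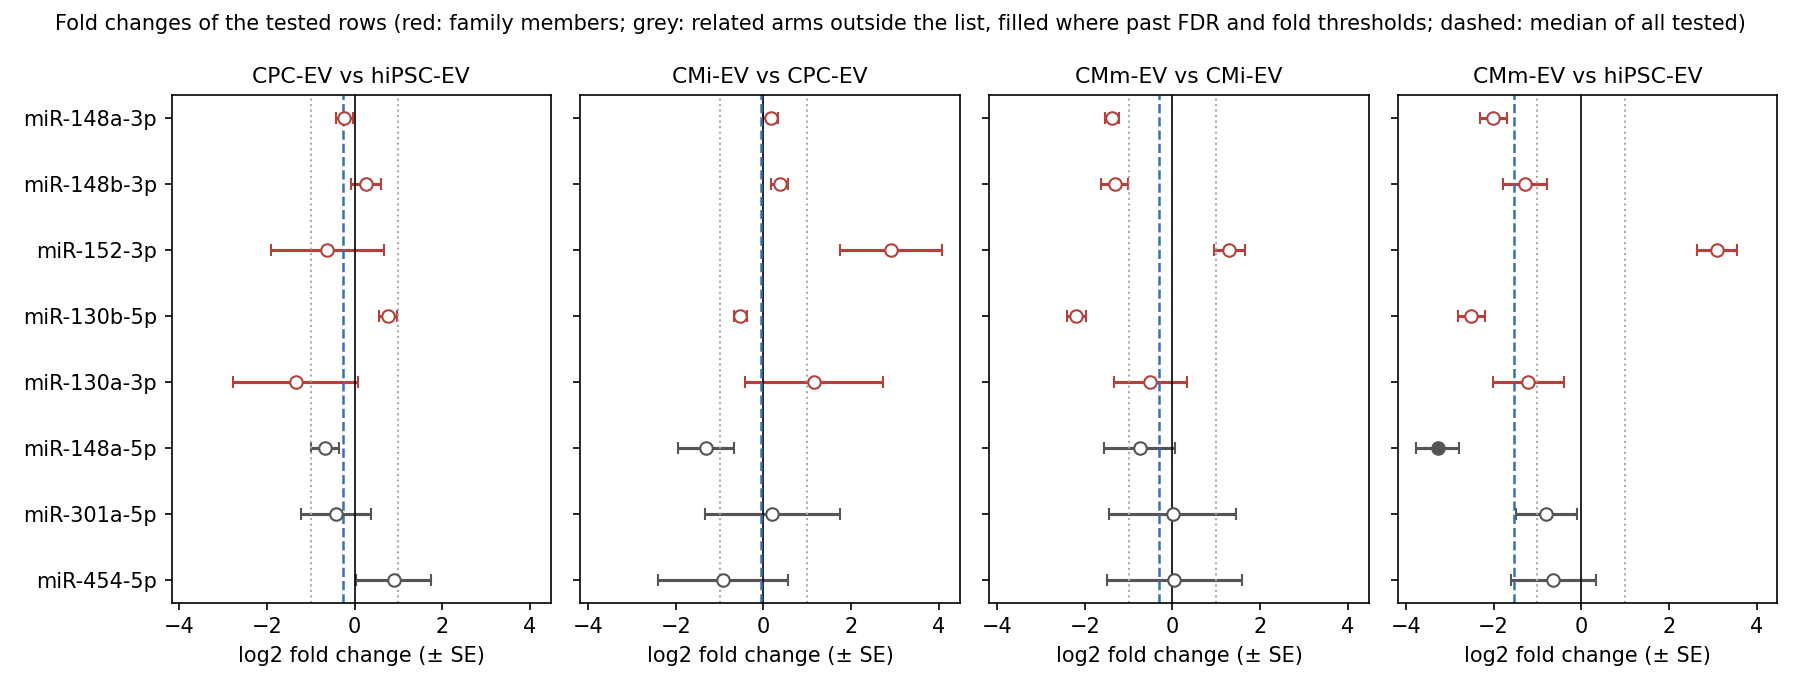
Log2 fold changes with their SE from the edgeR fits of the 4 pairs of EV groups, for the 5 members past the filter (red, shown without calls) and 3 tested arms outside the list (grey, filled where DE); the dashed line is the median of all tested miRNA and dotted lines mark a log2 fold change of 1 in either direction. In CMm-EV against CMi-EV, miR-130b-5p (-2.19) and miR-148a-3p (-1.37) lie left of the dashed line and miR-152-3p (1.30) to its right.

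Among the arms outside the list, miR-148a-5p, the minor arm of the miR-148a hairpin, gave the clearest difference. It had 276, 283 and 343 CPM in hiPSC-EV, 110, 173 and 142.8 in CPC-EV, 58.2, 22.6 and 92.0 in CMi-EV, and 47.4, 19.9 and 48.9 in CMm-EV. hiPSC-EV lay above all other libraries and CPC-EV above both cardiomyocyte groups, which overlapped. In CMm-EV it was lower than in hiPSC-EV by the quasi-likelihood test of edgeR, with a log2 fold change of -3.28 (SE 0.50, FDR 0.00202), in 3 of 3 libraries and in 13 of 13 alternatives (FDR up to 0.0125). Relative to the median of all tested miRNA this was -1.75. The single steps were not DE, with log2 fold changes of -0.68 (SE 0.32, FDR 0.179), -1.31 (SE 0.63, FDR 0.198) and -0.74 (SE 0.81, FDR 0.559 in edgeR) in the order of the stages. The share of the 5p arm in the counts of the miR-148a hairpin was 1.81% ± 0.307, 1.31% ± 0.233, 0.482% ± 0.314 and 0.730% ± 0.290 in the order of the stages (n = 3 each). Each hiPSC-EV and CPC-EV library lay above each cardiomyocyte library in this share, and whether the arms changed unequally was not tested.

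miR-454-5p and miR-301a-5p, from the hairpins within SKA2, were tested in each comparison and were DE in none. Their FDR in edgeR lay between 0.367 and 0.993. miR-454-5p had 89.7 ± 70.7, 118 ± 25.9, 65.4 ± 57.4 and 74.5 ± 26.5 CPM in the order of the stages, and miR-301a-5p 38.4 ± 7.92, 21.4 ± 8.62, 24.2 ± 23.2 and 27.3 ± 14.8. miR-454-3p, which shares the family seed, had counts in 5 libraries and at most 17.8 CPM. miR-148b-5p had counts in 7 libraries, miR-301b-5p in 2 and miR-130a-5p in 1.

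Over the 12 libraries, the 5 miRNA outside the list whose log2(CPM + 1) was most like that of the summed miR-148/miR-152 level, of 362 compared, were miR-124-3p (Pearson's r = 0.921), miR-363-3p (0.882), then miR-183-5p (0.875) and its neighbour miR-182-5p (0.874), and miR-200c-3p (0.873). Spearman's rho was 0.739, 0.727, 0.776, 0.776 and 0.771 (n = 12 libraries). These values describe likeness only, because the libraries fall into 4 groups and share their scaling. With library size only, or on linear CPM, none of the 5 was among the first 5. For the sparse miR-130/miR-301 sum, the first 5 were miR-342-5p (r = 0.774), miR-641 (0.762), miR-21-3p (0.751), miR-151a-5p (0.680) and miR-149-5p (0.676). Their rho lay between 0.203 and 0.713, with only 0.273 for miR-342-5p and 0.203 for miR-21-3p. This sum was 0 in CPC-EV 3, and how far that library set these r was not tested. With library size only, 3 of these 5 remained.

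Fragments of longer RNA in the same vesicles gave a readout of host and target genes. The lists of these genes, like the members, were chosen with earlier results of these data known. The quasi-likelihood F-test of edgeR across the 4 EV groups called 94 of 3421 tested gencode rows (2.75%) at an FDR of 0.05. This number depended on the method, with 1113 called under the 5 CPM filter and 500 by the likelihood ratio test of DESeq2. Total counts on gencode transcripts ranged from 131183 in CMm-EV 1 to 1908089 in hiPSC-EV 3, and were lower in the cardiomyocyte groups than in 5 of the 6 earlier libraries. The table splits a gene by transcript type and shares reads between types, and values below are expected counts of protein-coding rows.

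Of the 9 described targets of the miR-148/miR-152 family, 6 had a row, 2 were tested and none passed in edgeR, 1 of them with an unadjusted p under 0.05, as had 954 of the 3421 tested rows (27.9%). DNMT3B, the de novo DNA methyltransferase of pluripotent cells, had 16, 139 and 212 counts in hiPSC-EV, 0, 102 and 31 in CPC-EV, and none in the 6 cardiomyocyte libraries. Its p was 0.00163 and its FDR 0.0543 in edgeR, and the FDR ran from 0.0011 to 0.141 over the alternatives, at or under 0.05 in 12 of 18, so that its call depended on the setting. DNMT1, which maintains methylation, had 16.1, 6.30 and 10.1 counts in hiPSC-EV, 3.5, 30 and 0 in CPC-EV, at most 1.2 in CMi-EV and 0.8, 39.2 and 6.33 in CMm-EV (edgeR FDR 0.430). ROBO1, a guidance receptor, had 17.2, 11.4 and 26.7 counts in hiPSC-EV, 1, 5 and 0 in CPC-EV and none later, too few for the test. CCKBR, a receptor of gastrin, had counts in CPC-EV only (14, 5 and 97). KLF4 and ITGB8 had counts in 2 and 1 libraries.

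Of the 8 described targets of the miR-130/miR-301 family, 4 had a row and none was tested. SMAD4, a mediator of TGF-β signalling, had 2, 5.80 and 18.9 counts in hiPSC-EV, 47.4, 7.71 and 2 in CPC-EV and none later. MEOX2 had counts in 6 libraries, up to 34 in hiPSC-EV 3, and TP53INP1 in 5, up to 52 in CMi-EV 2. Among the host genes, COPZ1 had counts in 4 libraries, up to 40.9 in CPC-EV 2 (edgeR FDR 0.395), while SKA2 and the neighbouring PPIL2 had counts in 3 and 2 and were not tested.

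All values came from 1 line with 3 cultures per stage, and no library came from another line. Levels are relative to the other miRNA of the libraries, and give no amounts per vesicle or per cell. miR-130b-3p, miR-301a-3p and miR-301b-3p had no count in most libraries and could not be followed, and 3 counts correspond to as much as 3.64 CPM in CMm-EV 1. Whether the vesicles delivered any of these miRNA, or repressed a target, was not tested.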

How the data were processed

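The deposited tables hold expected counts of miRNA and of gencode transcripts per library, made by the authors with the exceRpt pipeline, and expected counts were rounded to whole numbers here. The RPM deposited by the authors served as an alternative scale for the family levels. Columns were matched to the 12 libraries by the sample labels. Members and lists were chosen with earlier results of these data known. The named genes were the members, the other arms of their hairpins, miR-454, miRNA with a member's seed, genes over a precursor, PPIL2, 17 described targets, and the 5 miRNA most like each family. edgeR 4.0.16 in R 4.3.3 fitted each pair of groups with TMM factors, on miRNA that reached 5 CPM throughout a group of 3, and the 4 groups on gencode rows kept by filterByExpr, after tests on simulated data. FDR was limited to 0.05 and the absolute log2 fold change of miRNA to 1 or more. Gencode values are split over transcript types. Alternatives used other scaling, filters, DESeq2 1.42.0, a fit of all 12 libraries, a replicate term and each library left out. A count of 0 was taken as up to 3 counts, a bound for counting error only. Figures and shares used Python 3.11.15 with scipy 1.17.1.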

Additional observations from a re-analysis of the deposited data

How the results depend on the processing

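The number of DE miRNA between CMm-EV and CMi-EV, 41, was 27 with filterByExpr and ranged from 20 (without CMm-EV 2) to 60 (without CMi-EV 3). Between CPC-EV and hiPSC-EV it ranged from 75 to 129, between CMi-EV and CPC-EV from 72 to 102, and between CMm-EV and hiPSC-EV from 153 to 217 with single libraries left out. With library size only, CMi-EV had 31 higher and 56 lower DE miRNA against CPC-EV instead of 42 and 41, and CMm-EV had 10 higher and 42 lower against CMi-EV instead of 16 and 25. Libraries with the same replicate number showed little correlation of their deviations in the compared pairs of groups (r between -0.121 and 0.0965). With 3 libraries per group, this does not settle whether the number pairs cultures. With a replicate block, the counts of DE miRNA were 39, 69, 17 and 137 in the order of the report, and 134 gencode rows. Against 94, the called gencode rows were 1113 with the 5 CPM filter, 193 when counts in 3 libraries sufficed, 500 with the likelihood ratio test of DESeq2, and 35 to 135 with single libraries left out. The cause of these shifts was not tested. Of 416 fold changes of named miRNA under alternatives, 16 changed sign. The family levels moved in 7 of 40 alternatives, each of them a change of scale.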
